A study of Homo sapiens with 24 samples.

Results

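The transcript levels described here belong to 40 genes whose products build ribosomes in the nucleolus or finish the pre-ribosomal particles that leave it. They were taken from a list of gene symbols matched to the gene identifiers of the expression table, and all 40 of 40 were found among the 12285 genes of the table. RNA was sequenced from K562 cells, an established human leukaemia line, at 24 time points from 0 h to 46 h, every 2 h, after centrifugal elutriation, a method that sorts cells by size to collect a synchronous population. Each time point was 1 sample of the same untreated line in RPMI medium with bovine calf serum and antibiotics, and there were no controls and no replicates. Levels were in FPKM (fragments scaled to transcript length and to the mapped fragments of the library), which is a scale per length on which different genes can be compared.

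A ribosome begins in the nucleolus, where ribosomal DNA is transcribed into a long precursor RNA that is modified, folded, cleaved and dressed with ribosomal proteins. Box C/D particles guide methylation of this RNA and H/ACA particles guide its pseudouridylation. The small subunit processome assembles on its front part, while a separate set of factors, including the PeBoW complex, matures the large subunit. Growing and leukaemic cells express these genes strongly, and many of them are known targets of MYC, a transcription factor that binds the letters CACGTG with its partner MAX.

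The members covered each of these steps. NCL, NPM1 and NOLC1 encode abundant nucleolar proteins with organizing and chaperone roles. FBL, NOP56 and NOP58 encode core proteins of the box C/D particle, FBL being its methyltransferase, and RRP9 encodes a protein specific to the U3 particle. DKC1, NHP2, NOP10 and GAR1 make up the H/ACA particle, with DKC1 as its pseudouridine synthase. WDR43, WDR75, UTP3, UTP4, UTP15, UTP18, UTP20, NOP14 and NOC4L belong to the small subunit processome. BYSL, LTV1, NOB1, TSR1 and RRP12 act later on the small subunit, NOB1 being the nuclease that makes the final cut of its RNA. PES1, BOP1 and WDR12 form the PeBoW complex. NOP2, NOP16, NOC2L, NOC3L, RRP1, RRP1B, RRS1, GNL2, GNL3, EBNA1BP2, MRTO4 and NIP7 act on the large subunit or its precursors, NOP2 as an RNA methyltransferase and GNL2 and GNL3 as nucleolar GTPases.

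The promoters were searched for 3 motifs, on both strands, since many of the members were high and low at the same time points. Promoter windows of 250 bases before to 50 bases after the start, from RefSeq on GRCh38.p14, were matched by symbol for 34 of the members. The letters CACGTG were present in 16 of these 34 windows (47.1%), against 10.6% of the 9003 windows of genes in the expression table and 7.43% of all 27305 promoters. The letters CCGGAAG, a core of ETS factor sites, were in 13 member windows (38.2%) against 21.9% for the genes of the table, and the palindromic NRF1 site was in 3 (8.82%) against 2.60%. A match describes the letters of a window and not the binding of a factor. The stretches below are those in which CACGTG, in capitals, began ahead of the start site, and in RRP9 its last letter is the start base. UTP20, RRP9, EBNA1BP2 and NOP10 are 4 members whose levels fell over the series, as given further on. UTP18 had the largest early difference of the members, and UTP4 is a processome member with a slope above 0. NOP10 is shown with both of its copies, of which the first starts 170 bases before the start site and the second 11 bases before it.
UTP20, chr12:101280070-101280114, + strand: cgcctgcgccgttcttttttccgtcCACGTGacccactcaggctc
RRP9, chr3:51941895-51941934, - strand: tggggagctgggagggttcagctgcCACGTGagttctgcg
EBNA1BP2, chr1:43172777-43172820, - strand: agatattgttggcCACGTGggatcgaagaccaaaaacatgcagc
NOP10, chr15:34343276-34343331, - strand: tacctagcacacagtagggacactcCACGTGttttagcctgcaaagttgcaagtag
NOP10, chr15:34343127-34343172, - strand: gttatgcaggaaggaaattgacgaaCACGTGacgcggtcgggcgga
UTP18, chr17:51260432-51260487, + strand: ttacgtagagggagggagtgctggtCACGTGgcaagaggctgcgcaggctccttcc
UTP4, chr16:69132608-69132658, + strand: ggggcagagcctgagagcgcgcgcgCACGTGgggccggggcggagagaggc

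The libraries at 16 h and 18 h stood apart from the rest. The study calls such time points STRIPEs, and these are the ones it replaces by interpolation. By visual inspection it also marks 32 h as a mild STRIPE, which its detection function did not list. The time point 32 h was kept among the 22 used here. Summed FPKM lay between 456791 and 520382 at the remaining 22 time points and was higher at 16 h (566247) and at 18 h (591309), and the nuclear long RNA MALAT1 stood at 11070 and 12320 FPKM against 556 to 1593. Slopes and ranges below therefore leave out 16 h and 18 h unless stated. The line was recognisable from its markers, with all 7 erythroid markers in the table at a summed 2719 to 7777 FPKM, while 1 of 6 fibroblast markers (COL1A2, at most 3.94 FPKM) was present. CCNE2, a cyclin of the G1/S transition, was highest at 2 h, and CCNB1, a cyclin of mitosis, was highest at 22 h.

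The members were abundant transcripts in these bulk samples, in which fewer cells with a transcript and less of it per cell cannot be told apart, and no value of any member was 0 at any time point. Their share of the summed FPKM lay between 0.876% and 1.11% at the 22 time points and reached 1.32% when 16 h and 18 h were included. The median of the members' mean levels was 81.1 FPKM, against 13.8 FPKM for all 12253 genes whose mean reached 1 FPKM. NCL ranged from 638 FPKM at 46 h through a median of 755 to 949 at 32 h. NPM1 ranged from 382 at 46 h through 444 to 737 FPKM at 32 h. FBL ranged from 286 at 32 h through 395 to 643 FPKM at 30 h, so it was lowest at the time point at which NCL and NPM1 were highest. NOP56 ranged from 221 at 46 h through 310 to 361 FPKM at 6 h. WDR12 ranged from 146 at 4 h through 187 to 212 FPKM at 14 h, and it was the only one of these 5 most abundant members with its lowest value early in the series. The 3 least abundant members were UTP20 (9.33 at 46 h, median 14.9, 20.3 FPKM at 6 h), NOC3L (14.8 at 2 h, median 24.0, 28.0 FPKM at 12 h) and RRP12 (17.02 at 44 h, median 22.0, 39.6 FPKM at 6 h). RRP12, a late factor of the small subunit, had the widest range of all members, 2.33-fold between its lowest and highest time point, and BOP1 had the narrowest at 1.31-fold.

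The members shared a course over the series (profile of members against other gene lists). Their median level was taken relative to each gene's own mean over the 22 time points, on the log2 scale. It was low at 2 h (-0.14), where 7 of 40 members and 45.9% of all genes were above their own mean. It was 0.20 at 6 h and between 0.10 and 0.14 from 8 h to 14 h. From 8 h to 14 h, 34 to 36 of the 40 members were above their mean, and 46.4% to 48.4% of all genes. The members' median returned to -0.01 at 20 h and -0.07 at 24 h, and stood at 0.12 at 30 h and 0.16 at 32 h. It was then lower at each successive time point from 34 h on, reaching -0.28 at 46 h. At 44 h none of the 40 members (0 of 40) was above its own mean, and at 46 h only WDR12 was. The shares over all genes were 45.9% and 49.8%. The median over all genes stayed between -0.03 and 0.05 at the same 22 time points.

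**Figure D1:**
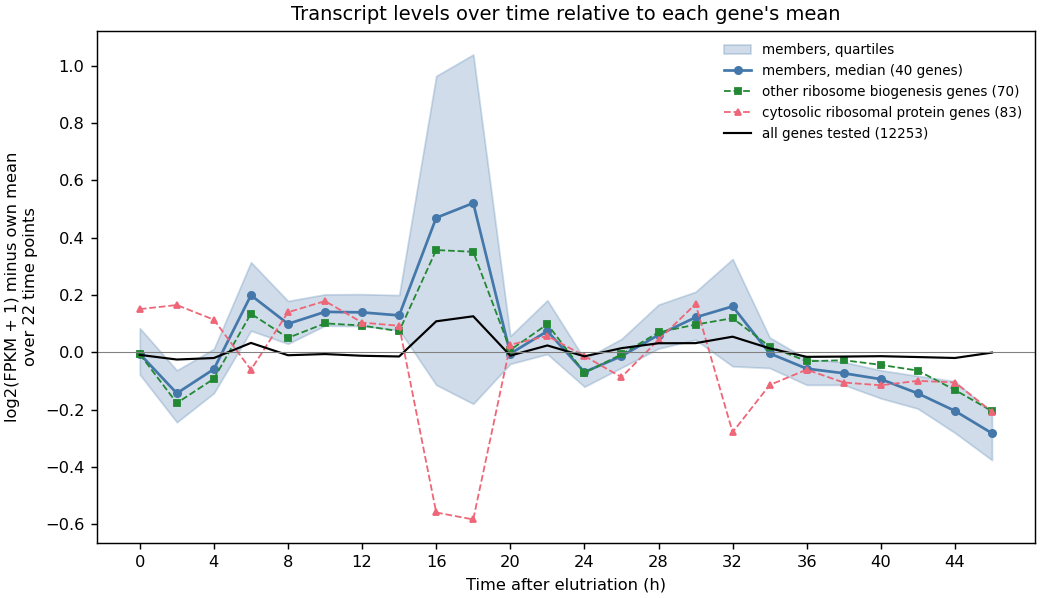
Median log2(FPKM + 1) relative to each gene's own mean over 22 time points (vertical axis), by hours after elutriation (horizontal axis), for the 40 members with their quartiles (band), 70 other ribosome biogenesis genes, 83 cytosolic ribosomal protein genes and all 12253 genes. The members' median is 0.10 to 0.14 from 8 h to 14 h and -0.28 at 46 h, and at 16 h and 18 h it is 0.47 and 0.52 while that of the ribosomal protein genes is -0.56 and -0.58.

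Windows of time points, chosen after the values were seen and given without a test, describe this course gene by gene. The mean level at 8 h to 14 h was higher than at 2 h and 4 h for 38 of 40 members, with a median difference of 0.27 on the log2 scale, while 52.1% of all genes were higher. The exceptions were NPM1 (-0.17) and NOP58 (-0.19). The largest of these differences were in UTP18 (0.65), RRP9 (0.61), NOC3L (0.59) and NOP16 (0.49), which act in the processome, on U3 and on the large subunit. The mean level at 42 h to 46 h was lower than at 8 h to 14 h for 40 of 40 members, with a median difference of -0.32, while 50.3% of all genes were lower. RRS1 (-0.79), RRP9 (-0.77), UTP20 (-0.74) and NOP16 (-0.69) had the largest late differences, and UTP3 (-0.03), WDR12 (-0.05), FBL (-0.12) and UTP4 (-0.12) the smallest. By group, the late difference had its deepest median in the large subunit factors (-0.43, 12 genes) and its shallowest in the nucleolar organizers (-0.23, 3 genes). The course was not particular to the members. Of the 70 other ribosome biogenesis genes, 60 were higher early (median 0.20) and 64 lower late (median -0.22). Of 78 mitochondrial ribosomal protein genes, 64 were higher early (median 0.13) and 70 lower late (median -0.24). The 83 cytosolic ribosomal protein genes had a median early difference of -0.02, with 27 higher, and a median late difference of -0.26, with 81 lower.

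**Figure D2:**
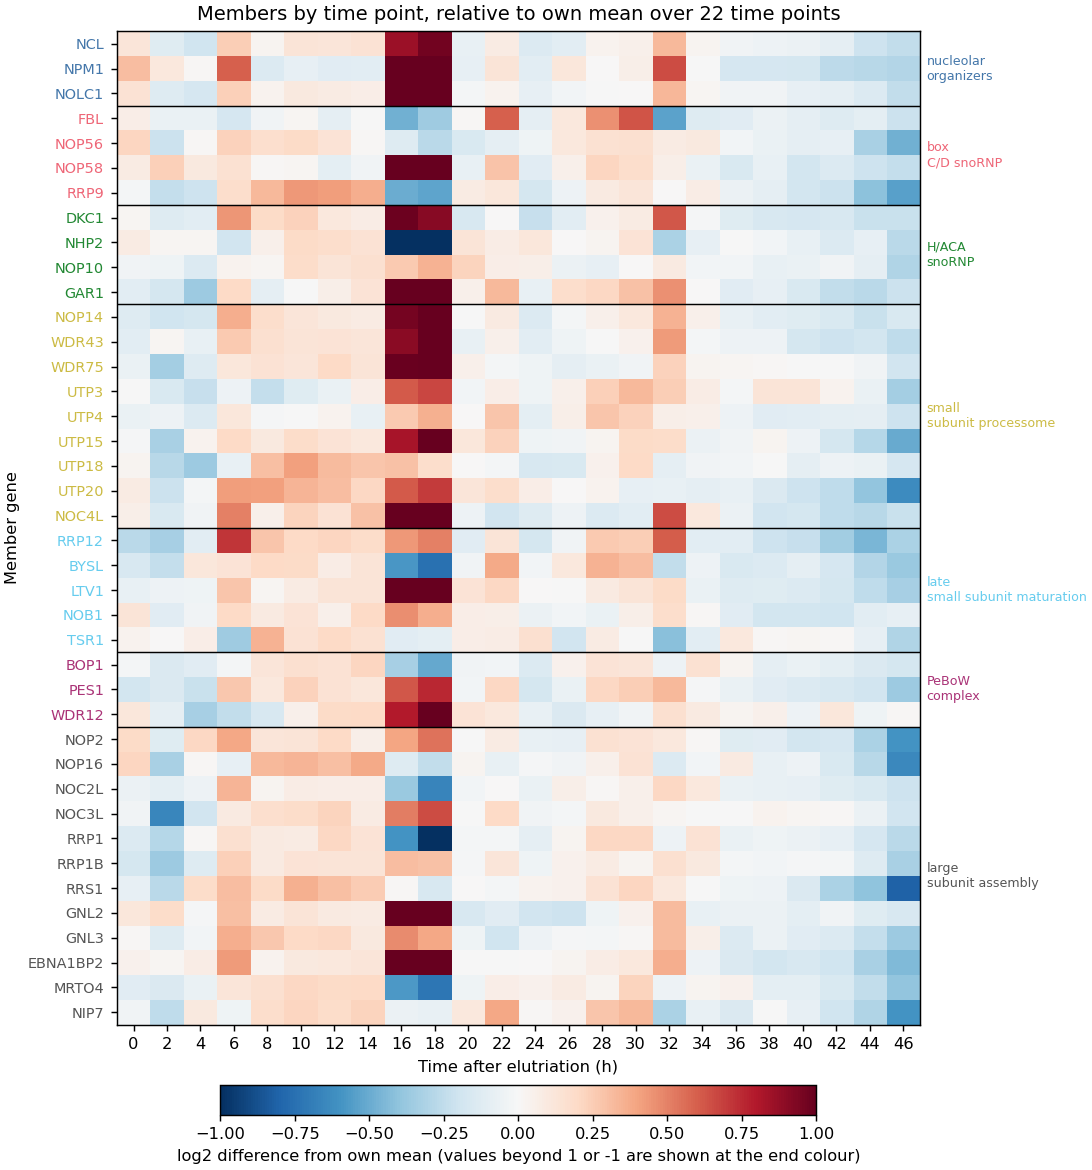
Level of each of the 40 members (vertical axis, grouped by role) at each of the 24 time points (horizontal axis, hours), as the log2 difference from its own mean over 22 time points, with red above and blue below. The columns at 42 h to 46 h are below the mean for nearly all members. At 16 h and 18 h the columns show 28 and 27 members above their own mean, many of them at the end colour. Of all genes, 56.6% are above their own mean at each of these time points.

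The lowest of the 22 time points was 46 h for 24 of the 40 members, against 10.8% of all genes. The highest was 6 h for 10 members (12.2% of all genes) and 32 h for another 10 (15.8% of all genes). No member had its highest level at 34 h or later. Of all genes, 11.3% had theirs at 46 h, and 0.694% to 2.42% at each time point from 34 h to 44 h.

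A 24 h rhythm was tested with the JTK statistic, which compares the rank order of the 24 values with that of a cosine at 12 phases. Over all 24 time points, 6 of 40 members passed (permutation p of 0.05 or less after Benjamini-Hochberg adjustment), where 13% of all genes did. NOP56 had the largest statistic (S = 162, phase 8 h, adjusted permutation p = 0.00508). It was followed by NOC2L, a factor of large subunit precursors (S = 146, phase 8 h, adjusted permutation p = 0.0133), and RRS1, a factor of the 5S particle (S = 144, phase 8 h, adjusted permutation p = 0.0144). WDR75 (S = 138, phase 14 h, adjusted permutation p = 0.0226), WDR12 (S = 132, phase 16 h, adjusted permutation p = 0.0325) and RRP1 (phase 6 h, adjusted permutation p = 0.0479) also passed.

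When 16 h and 18 h were left out, 15 of 40 members passed the same test, where 16.2% of all genes did, and 4 of these (NOP56, WDR75, NOC2L and RRS1) were among the 6 above. WDR12 and RRP1 then had adjusted permutation p = 0.0955 and 0.0866 and did not pass. With interpolated values at those time points WDR12 passed and RRP1 did not. DKC1, the pseudouridine synthase, had the smallest value (adjusted permutation p = 0.0102), followed by RRP12 (0.0111) and GNL3 (0.0135). The phase was 8 h for 10 of the 15 members that passed, and 17.8% of all genes that passed had this phase. NOP2 and EBNA1BP2 had a phase of 6 h, the commonest among all genes that passed (23.9%). The phase was 4 h for NOP58, 10 h for BOP1 and 12 h for WDR75. With a period of 20 h or 28 h in place of 24 h, 1 member passed in each case (WDR12 and NOP56 respectively). Of all genes, 1.9% and 3.3% did. With 46 h of data the series held fewer than 2 periods of 24 h.

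Over the length of the series, 8 of 40 members fell and none rose (0 of 40), where 12.3% of all genes fell and 19.6% rose (limma with Benjamini-Hochberg adjusted p, slope on the log2(FPKM + 1) scale beside a 24 h cosine, over 22 time points). The slope was below 0 for 36 of the 40, and for 5586 of all 12253 genes tested. Its median was -0.08 per 24 h for the members and 0.02 for all genes.

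UTP20, a large scaffold of the processome, had the steepest slope at -0.31 ± 0.067 (SE) log2 per 24 h (adjusted p = 0.00133). Its level went from 20.3 FPKM at 6 h through 16.4 at 20 h and 14.1 at 30 h to 9.33 at 46 h. NOP16, a large subunit factor, fell with a slope of -0.24 ± 0.067 (adjusted p = 0.00938), from 125 to 130 FPKM at 8 h, 10 h and 14 h to 63.6 at 46 h. RRP9, the U3 protein, fell with a slope of -0.23 ± 0.066 (adjusted p = 0.0100), from 42.8 FPKM at 10 h to 21.3 at 46 h.

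RRS1 (-0.21 ± 0.069, adjusted p = 0.0228) and NOP2 (-0.20 ± 0.054, adjusted p = 0.00734) followed. RRS1 stood at 45.7 FPKM at 10 h and 19.8 at 46 h, and NOP2 at 68.6 FPKM at 6 h and 34.2 at 46 h. The other members that fell were NHP2 (-0.15), EBNA1BP2 (-0.14) and NOP10 (-0.11). The large subunit factors held 4 of the 8 calls and the H/ACA particle 2. UTP3 had the largest positive slope (0.11 ± 0.063, adjusted p = 0.174) and did not pass, and GAR1, UTP4 and NOC3L were the other members with slopes above 0.

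UTP20, NOP16, RRP9 and NOP2 passed whichever single one of the 22 time points was left out. Without 46 h, 4 members fell and UTP3 rose, without 14 h 4 fell, and without 10 h or 12 h 5 fell. No share of all genes is given for these fits, and in the fit over 22 time points 12.3% of all genes fell. By a rank test of trend (Kendall statistic with a permutation p), 16 of 40 members fell, where 16.4% of all genes did, among them NPM1, NOLC1, DKC1 and NOP58, while NOP16 (adjusted permutation p = 0.0549) and NOP10 (0.0970) did not pass. In the limma fit over all 24 time points 7 members and 1082 of all 12253 genes fell. NOP16, RRP9 and NHP2 were not among the 7.

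**Figure D3:**
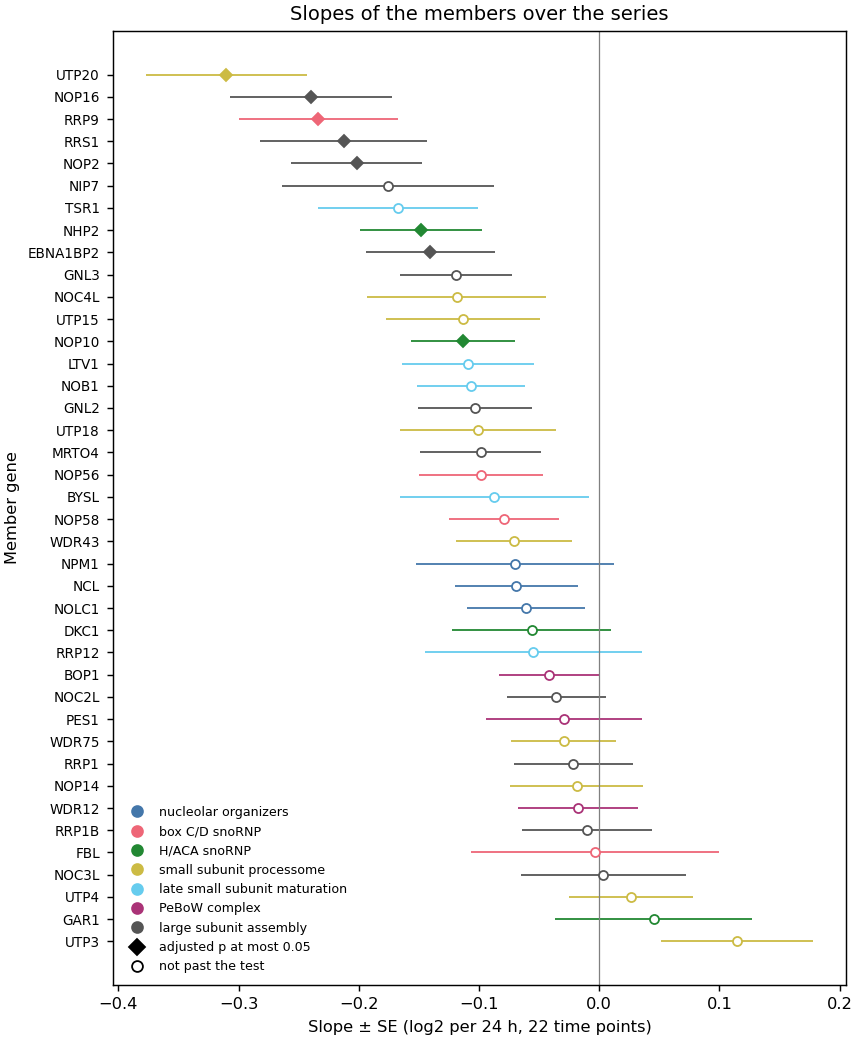
Slope over the series in log2 per 24 h with its standard error (horizontal axis) for each of the 40 members (vertical axis), from limma over 22 time points, coloured by role. Filled diamonds mark the 8 members with an adjusted p of at most 0.05, all of them to the left of 0, and UTP20 lies farthest at -0.31.

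The members with CACGTG in the promoter window (16 genes) had a median slope of -0.10, with 5 of them past the test, and the 18 matched members without it had a median slope of -0.08, with 2 past the test. By the JTK test over 24 time points the counts went the other way, with 0 of the 16 and 5 of the 18 past it. That contrast did not hold without 16 h and 18 h, when members of both sets passed. These were NOP2, NOP14, PES1, WDR43 and EBNA1BP2 with CACGTG, and DKC1, NOP56, WDR75, NOC2L, NOC4L and GNL3 without it. No difference between these sets was tested. MYC itself ranged from 97.0 FPKM at 2 h through a median of 128 to 177 FPKM at 12 h. Its slope (-0.06 ± 0.080, limma adjusted p = 0.608) and its order in time (phase 12 h, adjusted permutation p = 0.0641) did not pass.

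The genes of a wider list of 70 other ribosome biogenesis factors, none of them a member, were measured for comparison, and 8 of them fell and 3 rose by the slope test. NOL6, a processome protein, had a slope of -0.26 ± 0.068 (limma adjusted p = 0.00659), WDR18 one of -0.24 ± 0.045 (limma adjusted p = 0.000423) and WDR74 one of -0.21 ± 0.055 (limma adjusted p = 0.00603). NOP9 (0.20 ± 0.060, limma adjusted p = 0.0160), RBM28 (0.18 ± 0.056, limma adjusted p = 0.0200) and BUD23 (0.13 ± 0.046, limma adjusted p = 0.0352) rose. Of the cytosolic ribosomal protein genes, 45 of 83 fell and none rose (0 of 83), with a median slope of -0.18.

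At 16 h and 18 h the members did not move together. The measure was the mean distance of both time points, in log2(FPKM + 1), from a straight line between 14 h and 20 h, and with 1 sample per time point it has no test. Of the 40 members, 27 were above and 13 below the line, and of all 12253 genes 7114 were above it. The median was 0.44 for the members and 0.14 for all genes. At least 2-fold above were 6 members, where 8.95% of all genes were, and at least 2-fold below was 1 member, where 7.11% of all genes were. At the 16 other consecutive pairs of time points the members' median lay between -0.23 and 0.13, and no member (0 of 40) was 2-fold off the line at any of them. For 31 of 40 members (77.5%) the distance at 16 h and 18 h was larger than at every other pair, which held for 66.9% of all genes. Both libraries, measured from the same line, lay on the same side of it for all 40 members. The share of all genes for which this held was not taken. Across all 12253 genes the distances at 16 h and at 18 h correlated with r = 0.94.

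GNL2, the nucleolar GTPase, was the farthest above (1.40), with 259 FPKM at 16 h and 289 at 18 h between flanks of 112 (14 h) and 94.9 (20 h). NPM1 followed (1.39) with 436, 1132, 1171 and 444 FPKM from 14 h to 20 h. NOLC1 (1.19) had 128, 267, 301 and 120 FPKM at the same 4 time points. In all of these genes both libraries were above every one of the other 22 time points.

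NOP58 (1.18) had 142, 297, 337 and 137 FPKM, and NOC4L (1.15) and WDR43 (1.01) were the other members past 2-fold. On the other side, NHP2, a core protein of the H/ACA particle, was at -1.25, with 53.2 FPKM at 16 h and 45.2 at 18 h between flanks of 119 and 118. RRP1 (-0.89) had 55.2, 32.7, 23.2 and 49.3 FPKM. RRP9 (-0.73) had 40.8, 22.1, 21.5 and 33.3 FPKM. MRTO4, an assembly factor of the large subunit, was also at -0.73, with 122, 71.2, 64.1 and 103 FPKM.

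Partners in a particle parted at these libraries. In the H/ACA particle GAR1 (0.99) and DKC1 (0.98) were above the line, NOP10 was near it (0.11) and NHP2 below (-1.25). In the box C/D particle NOP58 was above, NOP56 was at -0.12, FBL at -0.42 and RRP9 at -0.73. In the PeBoW complex WDR12 (0.73) and PES1 (0.65) were above and BOP1 (-0.51) below. The 9 processome members were all above the line, from 0.09 in UTP18 to 1.15 in NOC4L with a median of 0.81, although UTP18 was below it when each time point was centred on its median or scaled to its upper quartile. With the GC trend described below removed, the PeBoW members were all above (PES1 0.97, WDR12 0.23, BOP1 0.22), and NOP56 (0.10), NOP10 (-0.08) and UTP18 (-0.19) also changed sides, while NHP2 (-0.98), FBL (-0.11) and RRP9 (-0.27) remained below. The 12 large subunit factors were divided evenly, with 6 above. The cytosolic ribosomal protein genes had a median of -0.63, with 26 of 83 at least 2-fold below. The 70 other ribosome biogenesis genes had a median of 0.29, with 52 above the line, 14 at least 2-fold above and 5 at least 2-fold below.

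**Figure D4:**
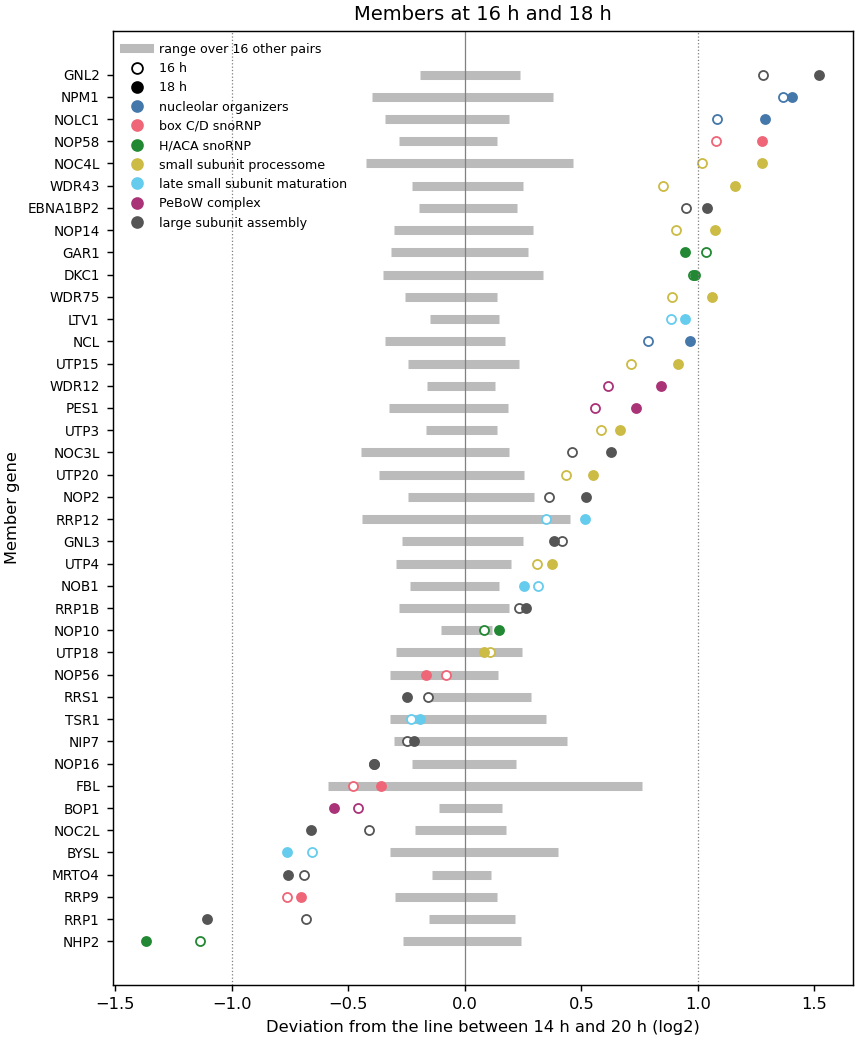
Distance from the line between 14 h and 20 h in log2 (horizontal axis) at 16 h (open points) and 18 h (filled points) for each of the 40 members (vertical axis), with the range over the 16 other pairs of time points as a grey bar. For 33 members the mean of both points lies outside the grey bar, and the dotted lines mark 2-fold, passed by 6 members above and NHP2 below. The share of all genes outside such a bar was not taken. By size alone, 66.9% of all genes were farther off than at every other pair.

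The side a member took moved with the GC content of its transcript. Of the 21 members with under 50% GC, 20 were above the line, with a median of 0.88, and of the 19 members at or above 50% GC, 7 were above, with a median of -0.21. Over all genes the counts above were 5336 of 6747 and 1730 of 5401. Across the 40 members Pearson's r of the distance with GC content was -0.59 (Spearman's rho -0.55), and across 12148 genes it was -0.52, all points coming from the same libraries. The exception under 50% GC was NIP7 (-0.23), and the farthest above at high GC was NOC4L, at 64.8% GC. After a smooth trend with GC content over all genes was removed, the members' median was 0.22, and 6 members changed sides. At least 2-fold above were then 2 members (NOC4L at 1.85 and GNL2 at 1.10) and none below (0 of 40). Of all genes with a GC content, 649 were at least 2-fold above and 483 below. Part of the members' distances thus moved with GC content, and its role in the level of any single gene was not tested.

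The distances at 6 h and 32 h resembled those at 16 h and 18 h in sign for many members, though not always in size. At 32 h NPM1 was 0.62 above the mean of its neighbours on the log2 scale, DKC1 0.58, NOC4L 0.66 and RRP12 0.53, while FBL was at -0.78 and NIP7 at -0.44. FBL, NIP7 and RRP12 were farther off at 32 h than at 16 h and 18 h (-0.42, -0.23 and 0.43). Across the 40 members the distances at 16 h and 18 h correlated with those at 32 h with r = 0.77 (rho 0.82), and across all 12253 genes with r = 0.60. With the values at 6 h, r was 0.61 across the members and 0.49 across all genes. The time points 6 h and 32 h thus carried the highest levels of 20 members and the same relation to 16 h and 18 h. Without 6 h and 32 h, 14 members fell by the slope test, including all 8 that fell with them, and 1616 of all 12253 genes fell.

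**Figure D5:**
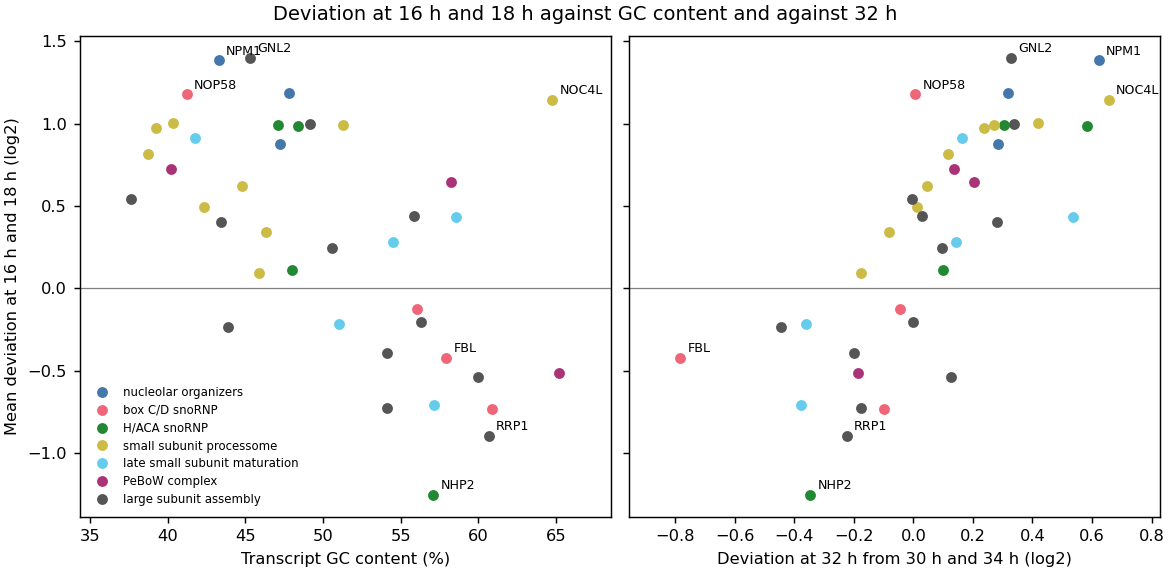
Mean distance of each of the 40 members from the line at 16 h and 18 h in log2 (vertical axis) against the GC content of its transcript in percent (left) and against its distance at 32 h from the mean of 30 h and 34 h in log2 (right), coloured by role. Points descend in the left panel (r = -0.59) with NOC4L apart at the upper right, and climb in the right panel (r = 0.77) with FBL at the far left.

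FBL had its highest levels at 22 h, 28 h and 30 h. It stood at 628 FPKM at 22 h, 570 at 28 h and 643 at 30 h, whereas the values at 20 h, 24 h, 26 h and 34 h were 418, 389, 446 and 379 FPKM. The mean at the first 3 of these time points exceeded that at the other 4 by 0.59 on the log2 scale, a comparison chosen after the values were seen and not tested. BYSL (0.35), RRP12 (0.32), NIP7 (0.31), PES1 (0.29), NOP58 (0.27) and UTP4 (0.26) had smaller differences of the same kind. In all, 7 of 40 members (17.5%) were 0.25 or more higher at 22 h, 28 h and 30 h, and 8.81% of all genes were, while no member (0 of 40) and 5.39% of all genes were as much lower. Genes outside the members differed by more, such as POLR1A (0.94) and GNL3L (0.81), named after their values were seen, and MALAT1 (0.87). Summed FPKM was also higher at these 3 time points, at 503962, 500802 and 520382, than the 464697 to 477199 at the 4 compared, and its part in the members' values was not tested. RRP1, MRTO4 and UTP3 also had their highest level at 30 h.

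Over the 22 time points the 780 pairs of members had a median Pearson's r of 0.56, as a description, since all points share the same libraries. This median was not taken for pairs of other genes, and the 22 time points include 6 h and 32 h. NCL and NOLC1 had the highest value (r = 0.96), followed by NOP14 and RRP12 (0.96), DKC1 and WDR43 (0.93) and BYSL and NIP7 (0.92). The first of these pairs encodes proteins of the nucleolar body, and the second joins a processome factor and a later factor of the small subunit. NPM1 and TSR1 had the lowest value (r = -0.54), followed by FBL and NOC4L (-0.41). TSR1, a GTPase-like factor of the late small subunit, was lowest at 32 h (39.8 FPKM) and at 41.7 FPKM at 6 h, the time points at which NPM1 was highest.

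Some members share transcribed sequence with other genes. By GENCODE 29, 7 members (NCL, DKC1, NOP56, NOP58, WDR43, GNL3 and TSR1) hold 25 small nucleolar RNA genes within their bounds, 18 members are overlapped by a gene on the opposite strand, and 9 have named pseudogenes, of which NPM1 has 45. Whether fragments were counted by strand, and how those matching several copies were assigned, was not given in the sources used here, so the levels of these members are less certain than those of the others.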

How the data were processed

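Total RNA from 24 samples of elutriated K562 cells, 1 per time point, had been sequenced on an Illumina instrument. The authors deposited FPKM values per gene, made with STAR, Cufflinks and Cuffnorm on GRCh37 per the submitters' processing notes, and kept genes with at least 1 FPKM in at least 12 time points. Versions and the annotation were not given in the sources used here. A second table from the authors holds a score, the quantile-normalized Z-score of the FPKM values, used only as an alternative. No column was left unused (0 columns). Library depth is unknown, so no counting error is given.

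Samples and columns were placed in time by their labels. Gene symbols, transcript lengths and GC contents came from a name table and GENCODE 29, promoters from RefSeq (GRCh38.p14), and no coordinates of the files were used. The members, gene lists and tests were chosen with earlier results of these data known. Order in time used the JTK statistic (12 phases, 24 h, 100000 permutations). Slopes used limma 3.58.1 in R 4.3.3 on log2(FPKM + 1) of the genes whose mean reached 1 FPKM, without 16 h and 18 h, beside a 24 h cosine and sine. P-values were Benjamini-Hochberg adjusted over all genes. Those of limma measure the spread of single libraries about the fitted curve, which may be technical. Those of the JTK and Kendall tests come from random orderings of the time points. They treat all orders as equally likely, which neighbouring time points of a series need not meet. Distances at 16 h and 18 h were taken from the line between 14 h and 20 h, with 16 other pairs as reference. The pseudocount of 1 understates changes of low genes. Both tests were tested on simulated data. Full values are given for the 5 most and 3 least abundant members, the 5 steepest slopes each way past the test, the 5 largest JTK statistics, the 4 largest distances each way and the 3 steepest other biogenesis genes each way. All members are named, and others given values were chosen after their values were seen. Python 3.11.15 was used otherwise (numpy 2.4.6, pandas 2.3.3, scipy 1.17.1, statsmodels 0.14.6). A lymphoid marker list is not reported here.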

Additional observations from a re-analysis of the deposited data

How the results depend on the processing

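The number of members passing the JTK test, 6 as reported, is given here with the share of all genes passing in brackets. It was 15 without 16 h and 18 h (16.2%) and 17 with PCHIP interpolation of them (18.4%). At periods of 20 h and 28 h it was 1 (1.9%) and 1 (3.3%). It was 8 in the cleaned table (12.6%), 6 among genes whose mean reached 10 FPKM (16.2%) and 9 by limma's F-test (14.2%). The number that fell, 8 as reported, was 15 without 0 h and 2 h (1956 of all 12253 genes). It was 14 without 6 h and 32 h (1616), 15 after median centring (2239) and 16 by the Kendall trend (2015). With single time points left out it was 4 to 12, with no share of all genes given. Under the other settings it was between 6 and 12, where between 1082 and 1881 of the genes tested fell. The number that rose was 0 except without 46 h, where it was 1 (range 0 to 1). The median slope, -0.08, was -0.16 over all 24 time points. At 16 h and 18 h, 17 members were at least 1.5-fold above and 5 below, counts for which no share of all genes was taken. Members at least 2-fold above and below were 6 and 1. They were 5 and 2 after median centring, 2 and 2 after upper-quartile scaling, and 8 and 1 with a pseudocount of 0.1. Of all genes, 802 and 1126 were so after median centring, 579 and 1299 after upper-quartile scaling, and 1344 and 1308 with that pseudocount. The members' median of 0.44 was 0.33 after median centring, 0.21 after upper-quartile scaling and 0.22 with the GC trend removed, and the median over all genes was 0.14, 0.03, -0.06 and 0.00 in the same order. The members' median stayed above that of all genes under each of these. Centring moved UTP18 to the other side of the line, upper-quartile scaling UTP18 and NOP10, and removal of the GC trend NOP56, NOP10, BOP1, UTP18, NOC3L and RRS1. Of the 86 alternative values, 64 were counted as close to those reported and 22 as moved, and the cause was not tested. The 64 include every setting in which no member rose. They also include counts of 12 members that fell beside 8, and of 9 by limma's F-test beside 6 by the JTK test. No paired analysis was possible because each time point had 1 sample and the samples form no groups.

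Library depth was not known, the time points are single samples, and the 24 h cosine and the slope are fitted to 46 h of data, which limits how far a rhythm and a decline can be told apart.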
